A study of Homo sapiens with 18 samples.

Results

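PAGE2, PAGE2B and PAGE5 are 3 cancer-testis genes whose signal set the lapatinib-resistant SKBR3 line apart from its parent more than that of any other gene on the array. They are described here together with 6 relatives, PAGE1, PAGE4, MAGEA3, MAGEA6, MAGED2 and MAGEH1. The members were every probe annotated to these 9 gene symbols, 18 of the 48803 probes of the table, for 9 of its 18852 named genes. They were chosen for the rise of PAGE genes in the resistant line, so every line difference of theirs is a description without a test. RNA of SKBR3, a human breast adenocarcinoma line with ERBB2 amplification, was measured on 1-colour Illumina arrays. The labels give the parental line and a line with acquired resistance to lapatinib (SKBR3-R), an inhibitor of the EGFR and ERBB2 kinases. Each was kept under basal conditions or given 0.1 µM or 1 µM lapatinib, with 3 arrays for each of the 6 groups. The labels do not give the length of exposure, whether the resistant line is 1 clone or a pool, or whether arrays of a group came from separate cultures. All p-values therefore measure only the spread between these arrays, which may be technical.

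PAGE and MAGE genes are families of mostly X-linked genes that expanded by duplication. Many of them are transcribed in male germ cells or placenta, are kept silent by DNA methylation in most other tissues, and are found active in some tumours, hence the name cancer-testis genes. PAGE proteins are small, acidic and largely unstructured, while MAGE proteins share a folded domain that binds RING-type ubiquitin ligases. MAGED2 and MAGEH1 belong to the MAGE branch of broad expression and are not restricted to the germ line.

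PAGE2B, PAGE2 and PAGE5 lie in 1 stretch of the short arm of the X chromosome and point the same way. In RefSeq on GRCh38.p14 the PAGE2B start used here, chrX:55075030, is 14 kb from that of PAGE2, and the start of PAGE2 is 131 kb from that of PAGE5. The span of the PAGE2B gene, chrX:55028117-55078909, begins further upstream, and the sequence at that end is not shown. The windows from 250 bases before to 50 bases after their annotated starts are shown because these 3 genes carried the line difference. They cover chrX:55074780-55075079 for PAGE2B, chrX:55088768-55089067 for PAGE2 and chrX:55220096-55220395 for PAGE5, each on the plus strand and taken from RefSeq. Capitals mark GCGCA and GCGC with 1 free base between them, the site form of the transcription factor NRF1.
PAGE2B: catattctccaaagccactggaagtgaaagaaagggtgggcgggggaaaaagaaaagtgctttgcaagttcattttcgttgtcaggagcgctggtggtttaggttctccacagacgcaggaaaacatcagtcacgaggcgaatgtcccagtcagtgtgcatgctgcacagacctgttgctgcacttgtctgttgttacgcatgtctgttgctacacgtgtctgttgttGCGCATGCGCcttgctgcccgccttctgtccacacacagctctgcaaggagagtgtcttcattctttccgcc
PAGE2: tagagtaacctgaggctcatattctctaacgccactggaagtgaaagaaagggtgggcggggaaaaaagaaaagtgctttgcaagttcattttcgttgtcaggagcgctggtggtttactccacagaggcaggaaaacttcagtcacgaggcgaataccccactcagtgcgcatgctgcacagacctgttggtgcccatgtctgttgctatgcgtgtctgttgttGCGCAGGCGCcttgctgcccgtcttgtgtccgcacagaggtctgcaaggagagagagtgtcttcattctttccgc
PAGE5: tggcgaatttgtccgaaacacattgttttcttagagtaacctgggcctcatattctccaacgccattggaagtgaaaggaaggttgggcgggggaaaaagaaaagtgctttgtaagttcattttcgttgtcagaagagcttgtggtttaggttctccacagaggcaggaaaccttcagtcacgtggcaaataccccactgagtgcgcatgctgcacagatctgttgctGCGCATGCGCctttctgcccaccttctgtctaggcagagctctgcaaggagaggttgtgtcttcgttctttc
The promoters of PAGE2 and PAGE2B were identical at 81.3% of aligned positions, PAGE2 and PAGE5 at 70.4%, and PAGE2B and PAGE5 at 63.4%. By the same alignment the other pairs compared ranged from 44.1% (PAGE2 and MAGEA3) to 57.5% (PAGE5 and PAGE3), apart from MAGEA3 and MAGEA6. The marked letters, searched on both strands after the sequences had been seen, occurred 1 time in each of the 3 windows. The match began 22 bases before the start in PAGE2B and PAGE5, where it read GCGCATGCGC, and 25 bases before it in PAGE2, where it read GCGCAGGCGC. Of the 35116 promoter windows of the same length, 5.78% held the form with the free base on either strand and 1.24% held GCGCATGCGC, so that the second count is contained in the first. The windows of PAGE1, PAGE4, MAGEA3, MAGEA6, MAGED2 and of the neighbouring gene PAGE3 held no such letters. MAGEH1 had no entry among the promoter sequences. CG pairs numbered 12 in PAGE2B, 13 in PAGE2 and 10 in PAGE5, against a median of 14 over all windows, and 19 in MAGEA3 and MAGEA6, whose 300 bases were identical. The letters GGAA, the core bound by ETS factors, or their complement TTCC occurred 4 times in each of the 3 PAGE windows and at least 1 time in 95.5% of all windows. A match of letters is a description of the sequence, and binding was not measured.

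The samples behind these values can be described in ranges. Mean signal per array lay between 417 and 675 in the deposited table, and the background level of an array, the brightness that 5% of background probes would pass, between 85.8 and 116. Replicate arrays correlated at 0.986 to 0.995. Of the 10 markers of an ERBB2-amplified luminal line, 8 were above background on all arrays, ERBB2 and KRT19 among them. GATA3 was above it on 5 arrays and CDH1 on 0. The summed intensity of these markers was 80925 to 88782 in resistant and 113605 to 126906 in parental basal arrays. After normalization, of the 9 of them tested 2 were higher and 0 lower in the resistant line under basal conditions, with a median difference of -0.02 (log2). With limma 6 of the 9 had an unadjusted p under 0.05 there. Of 11 germ cell markers, DDX4, DAZL, PRM1, PRM2, SYCP1 and TEX101 were above background on 0 of 18 arrays, PIWIL1 and ZPBP on 1, ACR on 4, TNP1 on 7 and SYCP3 on 11. Their summed intensity, most of it from genes not above background, was 808 to 856 in resistant and 954 to 1057 in parental basal arrays, whose background levels were 90.9 to 92.5 and 102 to 116. After normalization the 3 of them tested had a median line difference of 0.05 (log2), 0 passed limma's test and 0 had an unadjusted p under 0.05. Of 11 markers of leukocytes, fibroblasts and endothelium on the array, COL1A2, COL3A1, LUM and PTPRC were above background on 0 arrays and CDH5, PECAM1 and VWF on 18. Their summed intensity was 1010 to 1041 in resistant and 1180 to 1326 in parental basal arrays, and after normalization 0 of the 6 tested were higher and 1 was lower. The part of these cell types in the results was not tested. In a bulk sample, more cells with a transcript and more transcript per cell cannot be told apart.

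PAGE2, a member of the PAGE family with expression in testis and placenta, was bright on every resistant array and dim on every parental one. Its deposited intensities in parental cells were 222, 149 and 173 under basal conditions, 153, 112 and 130 at 0.1 µM, and 326, 163 and 133 at 1 µM lapatinib. In resistant cells they were 6510, 6668 and 5598 under basal conditions, 6330, 6122 and 3809 at 0.1 µM, and 6928, 7174 and 7412 at 1 µM. The lowest resistant array was thus far above the highest parental one, and no pair of groups overlapped between lines. The parental signal was 1.14 to 3.49 times the background level of its array, so the gene was above background in both lines.

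PAGE2B, the near copy of PAGE2 beside it, showed the same separation. Parental intensities were 222, 161 and 126 under basal conditions, 156, 145 and 136 at 0.1 µM, and 257, 135 and 133 at 1 µM. Resistant intensities were 6518, 5021 and 4917 under basal conditions, 5623, 4794 and 3272 at 0.1 µM, and 5574, 5714 and 6509 at 1 µM. As for PAGE2, the third resistant array at 0.1 µM was the lowest of its line and the first parental array at 1 µM the highest of its own.

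PAGE5, which encodes a further small PAGE protein, was read by 3 probes, and 2 of them were bright in the resistant line. Probe ILMN_1744656 read 251, 232 and 215 in parental basal arrays, 196, 188 and 190 at 0.1 µM, and 385, 155 and 188 at 1 µM. In resistant cells it read 9092, 7487 and 7125 under basal conditions, 7848, 6447 and 4597 at 0.1 µM, and 6644, 6615 and 7819 at 1 µM. The lines did not overlap, and the same pair of arrays stood at the edges. Probe ILMN_2363141 read 174 to 241 in parental basal arrays, 177 to 213 at 0.1 µM and 137 to 250 at 1 µM. Its resistant values were 5083 to 6917, 2996 to 5661 and 5165 to 5510 in the same order. The third PAGE5 probe, ILMN_1695992, stayed near background, with 80.1 to 102 in parental and 81.7 to 94.5 in resistant cells, and was above background on 0 of 3 parental basal arrays and 1 of 3 resistant ones. Which part of the transcript it reads was not tested.

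**Figure D1:**
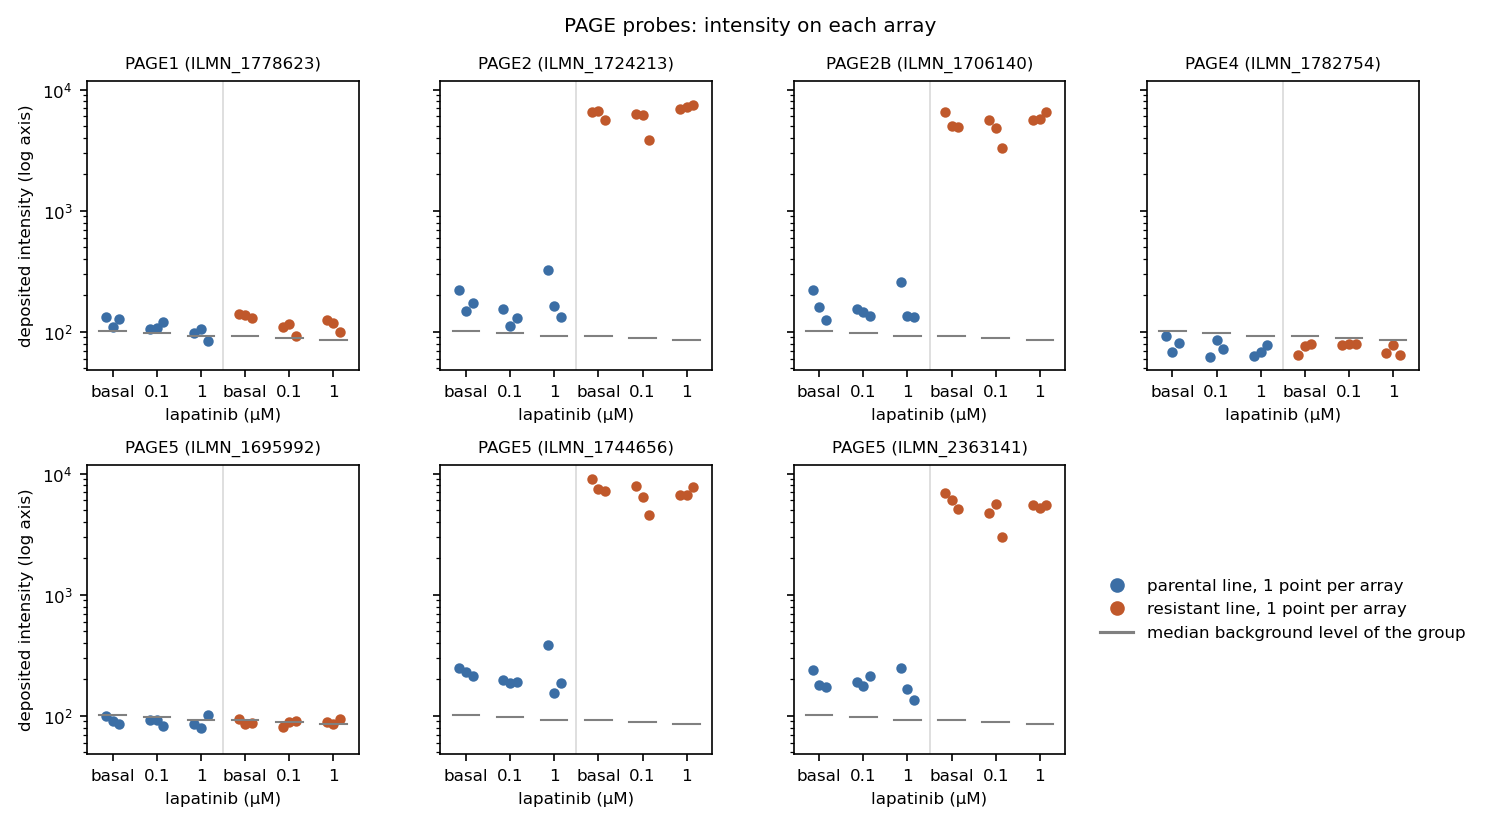
Deposited intensity of the 7 PAGE probes (log axis) on each of 18 arrays, by line and lapatinib concentration; each point is 1 array and grey lines are the median background level of the group. PAGE2, PAGE2B and 2 PAGE5 probes lay between 2996 and 9092 in the resistant line and between 112 and 385 in the parental line, while PAGE1, PAGE4 and the third PAGE5 probe lay near the background level in both.

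After normalization the 4 bright probes differed between lines by 5.51 (PAGE2), 5.40 (PAGE2B), 5.53 and 5.32 (PAGE5) on the log2 scale under basal conditions, resistant minus parental. At 0.1 µM the differences were 5.69, 5.27, 5.33 and 4.80, and at 1 µM they were 5.47, 5.40, 5.21 and 5.17, in the same order. The median over the 4 probes was 5.46 under basal conditions, a fold of 43.9, and 5.30 at both doses, a fold of 39.5. Ratios of the mean deposited intensities were smaller, 30.4 to 34.5 under basal conditions, 23.1 to 41.1 at 0.1 µM and 29.0 to 34.6 at 1 µM. Deposited values keep the background in both lines and are not scaled between arrays. Mean signal was 625 to 675 on parental and 456 to 528 on resistant basal arrays. Among 22829 probes above background on at least 3 arrays these 4 held ranks 1 to 4 at each treatment, and the next probe, for the actin-severing protein gene SCIN, differed by 4.09, 4.60 and 4.35. This order is the one the genes were picked for and has no test. Just inside that choice stood PAGE5 with 5.32 and just outside it SCIN with 4.09.

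The 4 probes could not be told apart by their pattern. Over the 18 arrays, which fall into the 2 lines, each pair correlated at 0.995 to 0.998, and deviations from the group means correlated at 0.80 to 0.92. The largest deviations came from a pair of arrays, described next, that departed from their replicates, so the second range leans mostly on them. PAGE2 and PAGE2B are near copies, so each probe may take up transcript of the other gene, which was not tested. The levels are therefore those of the PAGE2, PAGE2B and PAGE5 signal as a group, whose spread between replicates was small in most groups.

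A pair of arrays departed from their replicates in this signal. The mean of the 4 probes was 11.97 (log2) on the third resistant array at 0.1 µM against 12.90 and 12.75 on the other arrays of the group. On the first parental array at 1 µM it was 8.24 against 7.24 and 7.08. Each array was placed between its line and the other by the remaining arrays of its treatment, 0 standing for parental and 1 for resistant on the log2 scale. On the resistant array the PAGE signal stood at 0.85, or 0.54 on the linear scale, while the median of 38 other genes higher in the resistant line stood at 1.03 and that of 64 lower ones at 0.99. The parental array stood at 0.19 for the PAGE genes, or 0.02 on the linear scale, and at -0.01 and 0.04 for 43 and 62 other line genes. Near the parental end, the same small linear shift moves the log2 position further for genes with a larger line difference. Linear positions of the other genes were not computed. On the parental array these positions therefore cannot tell a shift of the PAGE genes alone from a shared one.

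**Figure D2:**
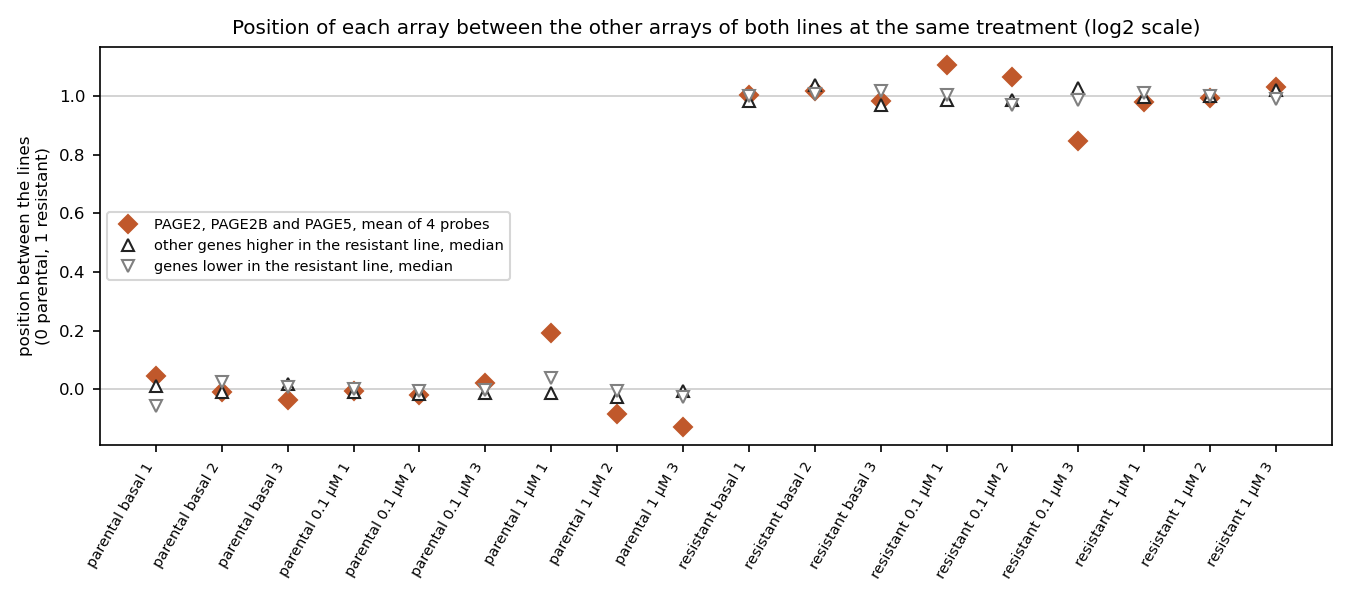
Position of each of the 18 arrays between the lines (0 parental, 1 resistant, log2 scale) for the mean of 4 PAGE probes and for the medians of other genes higher or lower in the resistant line. The third resistant array at 0.1 µM stood at 0.85 and the first parental array at 1 µM at 0.19 for the PAGE genes, with the other genes close to 1 and 0. For the parental array the sets are not comparable on this scale, since their line differences differ in size.

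PAGE1 and PAGE4, which lie nearer the tip of the short arm at chrX:49687447-49695984 and chrX:49829260-49834264, did not share this pattern. PAGE1, a GAGE-related gene first found in prostate cancer cells, read 132, 110 and 128 in parental and 141, 137 and 131 in resistant cells under basal conditions. Its line differences were 0.43 under basal conditions, 0.13 at 0.1 µM and 0.40 at 1 µM, at 0.90 to 1.53 times the background level over the 18 arrays. The PAGE4 probe, for a stress-responsive protein of prostate and reproductive tissues, was above background on 0 of 18 arrays (62.1 to 91.8) and was left out of the fit. The remaining 17 probes entered it.

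MAGEA3 and MAGEA6 encode near-identical proteins that pair with the ubiquitin ligase TRIM28, and the signal of the pair was already present in the parental line. MAGEA3 probe ILMN_1652276 read 893, 745 and 738 in parental basal arrays and 827, 593 and 584 in resistant ones. The brightest MAGEA6 probe, ILMN_2372681, read 1301, 1472 and 1451 against 1321, 1165 and 1114. The deposited intensities of the lines overlapped for both probes. Their basal means were lower in the resistant line, 668 against 792 for MAGEA3 and 1200 against 1408 for MAGEA6. After normalization the 2 probes were higher there, by 0.19 and 0.22 (log2), so the direction depended on the normalization. Over all 5 probes of the pair the line differences ran from -0.29 to 0.27 under basal conditions, from 0.00 to 0.27 at 0.1 µM and from 0.08 to 0.41 at 1 µM. Signals of the pair cannot be assigned to 1 gene with certainty, since transcripts of both may bind each probe. The dimmer MAGEA3 probe, ILMN_2153572, stood at only 1.20 to 1.36 times background in parental basal arrays.

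MAGED2, a broadly expressed gene whose loss causes a transient form of Bartter syndrome, had 1 probe clearly above background. This probe, ILMN_1683576, differed between lines by 0.22, 0.26 and 0.20 at the 3 treatments. The other MAGED2 probes, ILMN_1661417, ILMN_1684984 and ILMN_1789567, stayed at 0.74 to 1.43 times background. MAGEH1 differed by 0.28, 0.31 and 0.50 on probe ILMN_1659659 and by 0.27, 0.25 and 0.03 on ILMN_2078226. Of the 17 probes, 10 had lines that did not overlap under basal conditions, 6 at 0.1 µM and 10 at 1 µM. The share among all probes was 28.7%, 26% and 32.7%, and since the members were chosen on this contrast nothing is read from the counts.

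Lapatinib responses had not been used to pick the genes, although they share the basal arrays with the line contrast. In the parental line MAGED2 rose and the bright PAGE signal did not pass the test at either dose. The MAGED2 probe ILMN_1683576 read 256, 216 and 190 under basal conditions, 248, 246 and 222 at 0.1 µM, and 276, 269 and 276 at 1 µM in the deposited table. The basal and 0.1 µM arrays overlapped in the deposited intensities, and every 1 µM array was above every basal one. By limma's moderated test over all 22829 probes it rose by 0.42 (SE 0.12, adjusted p = 0.0326) at 0.1 µM and by 0.63 (SE 0.12, adjusted p = 0.000392) at 1 µM. It was the only one of 17 probes to pass at 0.1 µM, where 7.89% of all probes passed. At 1 µM 2 of 17 passed, against 20.7% of all probes. The second was MAGEA3 probe ILMN_2153572, which fell by 0.35 (SE 0.12, limma adjusted p = 0.0393) and stood at 0.93 to 1.36 times background in these groups. The brighter MAGEA3 probe differed by -0.08 (adjusted p = 0.736). Leaving out 1 array ended the MAGED2 call at 0.1 µM for the second or the third basal array or any 0.1 µM array (adjusted p up to 0.166). With median scaling MAGED2 stood at 0.22 there (adjusted p = 0.246), and MAGEA6 probe ILMN_2372681 passed in its place. The MAGEA3 call ended without the first or the third basal array or any 1 µM array (adjusted p up to 0.139). Between 1 µM and 0.1 µM 0 of 17 passed with limma, 3 had an unadjusted p under 0.05, and 3.32% of all probes passed.

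In the resistant line the same MAGED2 probe rose. Its intensities were 177, 203 and 213 under basal conditions, 253, 222 and 267 at 0.1 µM, and 312, 246 and 264 at 1 µM, so that no treated array overlapped the basal ones. The rise was 0.46 (SE 0.12, limma adjusted p = 0.027) at 0.1 µM and 0.60 (SE 0.12, limma adjusted p = 0.000766) at 1 µM. The call at 0.1 µM was lost without the first basal array or the first or the third 0.1 µM array (adjusted p up to 0.192), and with median scaling (0.36, adjusted p = 0.102). The other MAGED2 probes, at or near background, did not pass in either line. With the mean of the MAGED2 probes in place of single probes the 1 µM rise was 0.17 (adjusted p = 0.224) in parental and 0.12 (adjusted p = 0.432) in resistant cells. It was again the only member probe past the threshold, 1 of 17 at each dose, with 4.38% of all probes at 0.1 µM and 16.3% at 1 µM. From 0.1 µM to 1 µM 0 of 17 passed with limma, 1 had an unadjusted p under 0.05, and 3.36% of all probes passed.

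For the bright PAGE probes, with all arrays in the fit, no response passed limma's test at any dose in either line. In resistant cells the change at 1 µM was 0.35 for PAGE2, 0.27 for PAGE2B, and -0.05 and 0.01 for PAGE5 (lowest adjusted p = 0.355). The 95% intervals of these 4 changes together spanned -0.50 to 0.82. At 0.1 µM they were -0.27 to -0.05 (lowest adjusted p = 0.555, intervals from -0.67 to 0.42). Without the third resistant array at 0.1 µM they turned to 0.05 to 0.23 (lowest adjusted p = 0.659). In parental cells the change was -0.23 to 0.25 at 0.1 µM (lowest adjusted p = 0.552, intervals from -0.70 to 0.65) and 0.16 to 0.39 at 1 µM (lowest adjusted p = 0.262, intervals from -0.24 to 0.86). Without the first parental array at 1 µM the latter became -0.17 to -0.02 (lowest adjusted p = 0.576). Without the third they became 0.39 to 0.69, and PAGE2 passed (adjusted p = 0.036). A change smaller than these intervals was not detectable with 3 arrays a group, so they do not show that the signal stayed the same.

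The responses of the lines were then compared with each other. For the 4 PAGE probes the resistant response minus the parental one was -0.51 to 0.18 at 0.1 µM (lowest adjusted p = 0.642, intervals from -1.09 to 0.84). At 1 µM it was -0.32 to -0.00 (lowest adjusted p = 0.771, intervals from -0.95 to 0.62). For the MAGED2 probe it was 0.04 (SE 0.17, adjusted p = 0.971) and -0.02 (SE 0.17, adjusted p = 0.985). With limma 0 of 17 probes passed at 0.1 µM, where 0 had an unadjusted p under 0.05 and 0.00438% of all probes passed. At 1 µM 0 of 17 passed, 1 had an unadjusted p under 0.05, and 0.272% of all probes passed.

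**Figure D3:**
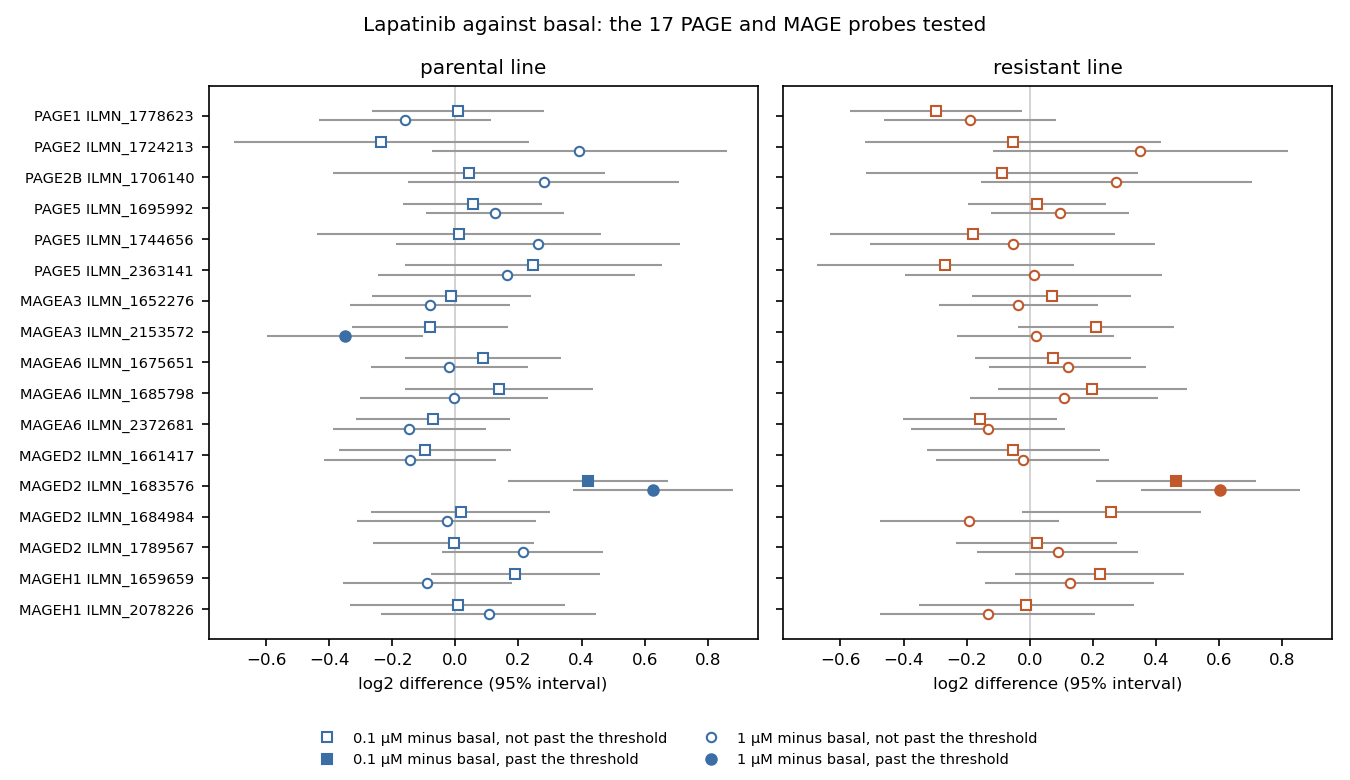
Change of the 17 PAGE and MAGE probes tested under 0.1 µM (squares) and 1 µM (circles) lapatinib against basal in each line, on the log2 scale with 95% intervals; filled symbols passed an adjusted p of 0.05. MAGED2 probe ILMN_1683576 is the filled point on the right in both lines, at 0.42 and 0.63 in parental and 0.46 and 0.60 in resistant cells, and MAGEA3 probe ILMN_2153572 at -0.35 is the filled point on the left in parental cells.

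Genes beside the PAGE2B to PAGE5 stretch were examined to see how far along the chromosome the line difference reached. Most of them differed little, and the called ones moved by less than 1 on the log2 scale. The 15 protein-coding genes on either side and those in between, members left out, made 29, of which 27 were on the array and 17 were above background. Under basal conditions 3 were higher in the resistant line and 1 was lower, which is 23.5% of those tested against 13.7% of all 12584 genes. TSR2, a ribosome assembly factor, was higher by 0.66 (SE 0.11, limma adjusted p = 0.000104), 0.62 (adjusted p = 0.000157) and 0.95 (adjusted p = 2.81e-07) at basal, 0.1 µM and 1 µM. VCF2, the gene that lies between PAGE2 and PAGE5, was higher by 0.41 (SE 0.12, limma adjusted p = 0.0194), 0.69 (adjusted p = 0.000108) and 0.54 (adjusted p = 0.00151). UBQLN2, which encodes a ubiquitin-binding shuttle protein, was higher by 0.44 under basal conditions (SE 0.10, limma adjusted p = 0.00547). KLF8, a zinc-finger transcription factor, was lower there, at -0.44 (SE 0.14, limma adjusted p = 0.0369). Leaving out 1 array ended the basal call of VCF2 for the first parental or the second or the third resistant basal array (adjusted p up to 0.0874). That of UBQLN2 was lost without the third parental basal array (adjusted p = 0.05), and that of KLF8 without the first or second basal array of either line (up to 0.213).

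At 0.1 µM 3 neighbours were higher and 1 lower (23.5% of those tested, with 18.2% of all genes), and at 1 µM 2 were higher and 0 lower (11.8%, with 19.1% of all genes). The third higher one at 0.1 µM was ALAS2, the erythroid haem synthesis enzyme, at 0.38 (SE 0.12, limma adjusted p = 0.0298). This call was lost without any 1 parental array at 0.1 µM or the third resistant one (adjusted p up to 0.085). The lower one was again KLF8 at -0.41 (limma adjusted p = 0.0431), which was lost without any 1 parental array, the first or second resistant array at 0.1 µM, or the first resistant array at 1 µM (adjusted p up to 0.119). The median neighbour differed by -0.00 under basal conditions, 0.10 at 0.1 µM and -0.04 at 1 µM, and the median of all genes by -0.00, -0.00 and -0.01. HSD17B10, GNL3L and APEX2, the neighbours with the highest signal that did not pass, differed by -0.06, 0.11 and -0.15 under basal conditions. PAGE3, the next family member along the chromosome, was not above background. Under 1 µM lapatinib 2 neighbours fell in parental cells, HSD17B10 (-0.64, limma adjusted p = 0.0015) and TSR2 (-0.30, limma adjusted p = 0.0462). In resistant cells 2 rose, KLF8 (0.46, limma adjusted p = 0.0193) and FAAH2 (0.43, limma adjusted p = 0.0208). These are 11.8% of those tested in each line, with 26% and 20.9% of all genes. Single arrays ended the calls of TSR2 (any parental basal or 1 µM array, the first parental at 0.1 µM or the third resistant at 1 µM, adjusted p up to 0.125), KLF8 (the first or the second resistant array at basal or 1 µM, up to 0.133) and FAAH2 (the second or the third of the same groups, up to 0.115). With arrays scaled to 1 median in place of quantile normalization, which moves the median of all probes by -0.19 under basal conditions, TSR2, VCF2 and UBQLN2 stood at 0.32, 0.17 and 0.08 there and no longer passed (adjusted p = 0.0824, 0.377 and 0.724). Beside PAGE1 and PAGE4, 5 of 16 neighbours were tested, and 2 were higher and 1 lower under basal conditions, 1 and 1 at 0.1 µM, and 0 and 0 at 1 µM, where 1 had an unadjusted p under 0.05. These are 60%, 40% and 0% of 5 genes, with 13.7%, 18.2% and 19.1% of all genes. Under basal conditions the higher ones were CCNB3 (0.85, limma adjusted p = 2.97e-05), a meiotic cyclin, and GAGE12G (0.48, limma adjusted p = 0.0487), and the lower one was SHROOM4 (-0.49, limma adjusted p = 0.0338). The GAGE12G call was lost with median scaling (0.12, adjusted p = 0.595) and without any of 14 single arrays of the 18 (adjusted p up to 0.158). That of SHROOM4 was lost without any 1 parental basal array or the first resistant one (up to 0.196). At 0.1 µM CCNB3 stood at 0.49 (adjusted p = 0.00829) and was lost without the third array of either line at that dose (up to 0.0789), and SHROOM4 stood at -0.75 (adjusted p = 0.00085).

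**Figure D4:**
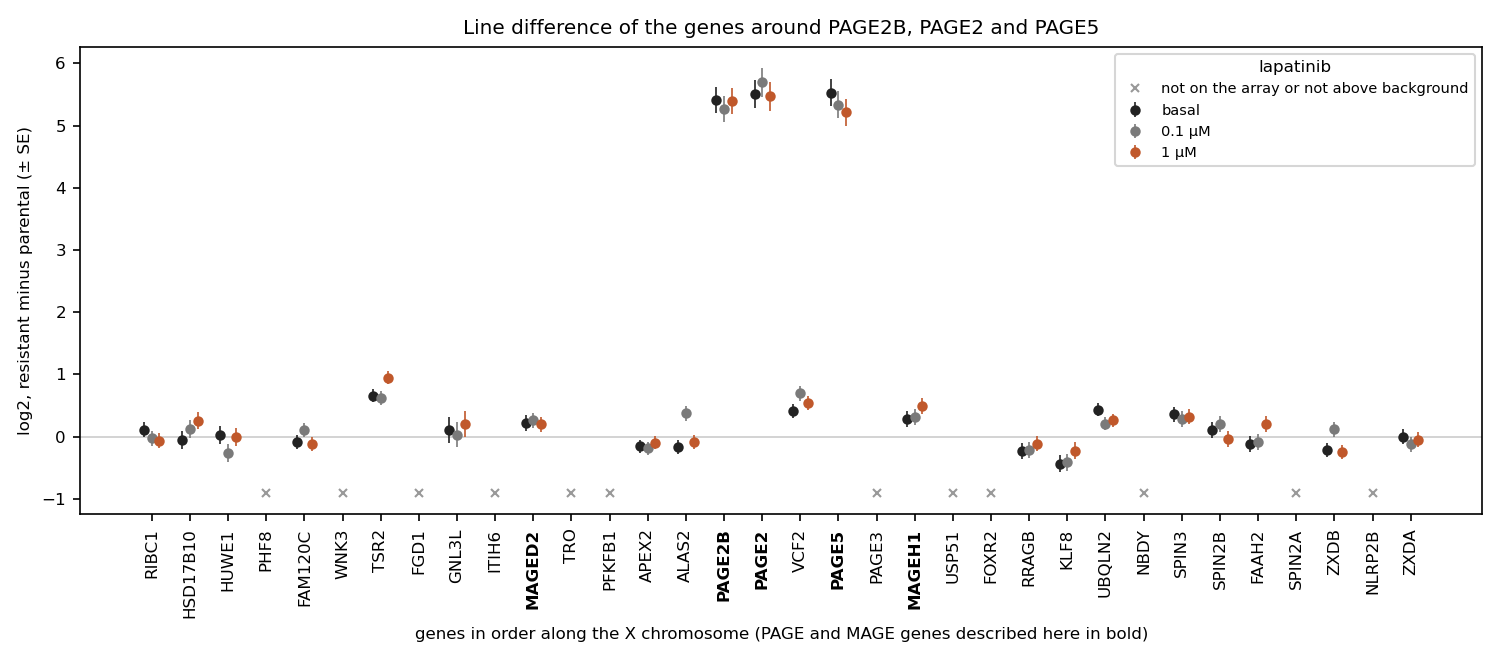
Line difference (log2, resistant minus parental, with SE) of genes in order along the X chromosome around PAGE2B, PAGE2 and PAGE5, at basal, 0.1 µM and 1 µM lapatinib; crosses mark genes not on the array or not above background. The 3 PAGE genes stand at 5.21 to 5.69, VCF2 between them at 0.41 to 0.69, and MAGED2 and MAGEH1 at 0.20 to 0.50.

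The other cancer-testis genes answer whether the PAGE pattern was shared by the class. A minority differed between the lines, in both directions, and none came near the PAGE difference. Of 200 genes listed, 158 were on the array and 78 were above background, a filter that a gene can pass through its bright line alone. Under basal conditions 12 were higher in the resistant line and 4 lower (20.5% of those tested, with 13.7% of all genes, 6.47% higher and 7.20% lower). At 0.1 µM the counts were again 12 and 4 (20.5%, with 18.2% of all genes, 8.82% higher and 9.39% lower), and at 1 µM 10 and 4 (17.9%, with 19.1% of all genes, 8.42% higher and 10.6% lower). With median scaling the counts were 8 higher and 12 lower under basal conditions, 7 and 5 at 0.1 µM, and 7 and 6 at 1 µM, so the split of the list depends on the scaling. The list's median difference was 0.04, 0.09 and 0.03 at the 3 treatments. Genes of X-linked families gave 8 higher and 3 lower under basal conditions among 36 tested, 6 and 3 at 0.1 µM, and 5 and 2 at 1 µM. The other families gave 4 and 1, 6 and 1, and 5 and 2 among 42, and the difference between the sets was not tested.

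Named by their p-values, the higher genes were led by XAGE2, a relative of the PAGE genes, under basal conditions and by SSX2 at both doses. XAGE2 differed by 1.41 (SE 0.12, limma adjusted p = 2.77e-09) under basal conditions, 1.07 at 0.1 µM and 1.15 at 1 µM. SSX2, a transcriptional repressor known from the fusion of synovial sarcoma, was above background on all resistant and 0 parental arrays. It was at least 2.10-fold higher under basal conditions (limma adjusted p = 6.8e-09), at least 1.93-fold at 0.1 µM and at least 1.75-fold at 1 µM. MAGEB2, a germ-line MAGE gene, was likewise above background in the resistant line alone, at least 1.61-fold, 1.67-fold and 1.61-fold higher (limma adjusted p = 2.04e-05 at basal). These bounds set the resistant signal against the dimmest signal above background on the parental arrays. The p-values of SSX2 and MAGEB2 belong to the fitted differences, whose parental side lay below background. Both genes entered the fit through the resistant arrays alone and count among the higher ones. PLAC1, a placental surface protein, differed by 0.92 (SE 0.11, limma adjusted p = 1.13e-06), 0.55 and 0.20, and the last did not pass (adjusted p = 0.267). SPA17, a sperm autoantigen, differed by 0.92 (SE 0.14, limma adjusted p = 2.54e-05), 0.77 and 0.75. SSX4, a relative of SSX2, differed by 0.72, 0.61 and 0.70 (limma adjusted p = 0.000191 at 1 µM).

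MAGEA1, a germ-line gene of the same cluster as MAGEA3 and MAGEA6, went the other way. It was lower in the resistant line, with a log2 difference of -1.55 under basal conditions (SE 0.12, limma adjusted p = 3.36e-10), -1.29 at 0.1 µM and -1.50 at 1 µM. CTAG2, ATAD2 and OIP5, the cancer-testis genes of the highest signal that did not pass, differed by -0.12, -0.19 and -0.14 under basal conditions. Under 1 µM lapatinib 14 of the 78 genes fell and 2 rose in each line (20.5% of those tested). Among all genes 26% passed in parental cells, 13.4% higher and 12.6% lower, and 20.9% in resistant cells, 9.89% higher and 11% lower. The falling ones included KIF2C (-1.18 in parental and -1.41 in resistant cells), PBK (-1.33 and -1.47), CEP55 (-1.17 and -1.33), TTK (-0.81 and -1.10), ATAD2 (-1.03 and -1.15) and OIP5 (-0.91 and -0.83), most of them cell division genes, and SPA17 (-0.86 and -1.04). XAGE2 fell too, by 0.39 in parental (log2 -0.39, limma adjusted p = 0.0235) and 0.65 in resistant cells (log2 -0.65, limma adjusted p = 0.000311). The parental call was lost without the second or the third array at basal or 1 µM (adjusted p up to 0.105). The 2 lines' contrasts at 1 µM share no arrays with each other.

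**Figure D5:**
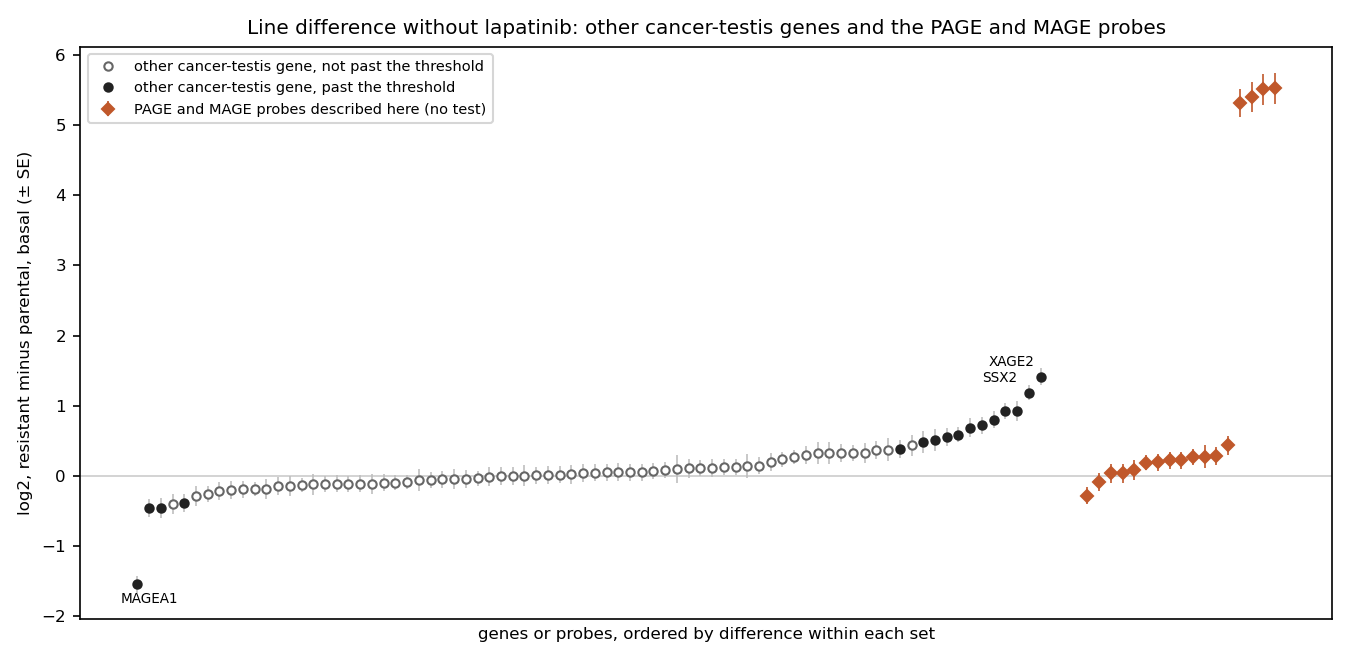
Line difference under basal conditions (log2, resistant minus parental, with SE) of 78 other cancer-testis genes, ordered by size, and of the 17 PAGE and MAGE probes; filled circles passed an adjusted p of 0.05 and the probes in orange have no test. XAGE2 reaches 1.41 and MAGEA1 -1.55, and the 4 PAGE2, PAGE2B and PAGE5 probes stand at 5.32 to 5.53.

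Genes that act on cancer-testis promoters or with MAGE proteins were read from further lists. Of 42 tested genes of DNA methylation and germline gene silencing, 1 was higher and 1 lower in the resistant line under basal conditions, 4.76% against 13.7% of all genes. ZBTB4, a reader of methylated DNA, was higher by 0.71 (SE 0.10, limma adjusted p = 8.54e-06), and MBD4, a glycosylase that binds methylated CG, stood at -0.43 (SE 0.12, limma adjusted p = 0.0233). The MBD4 call was lost without the first or second parental or the first or the third resistant basal array (adjusted p up to 0.131). DNMT1, the maintenance methyltransferase, did not pass there (0.21, adjusted p = 0.181) and was higher at 0.1 µM (0.48, limma adjusted p = 0.00073), a call lost with median scaling (0.27, adjusted p = 0.172). HDAC1 and RING1, of high signal, did not pass under basal conditions (-0.03 and -0.02). At 0.1 µM 3 were higher and 6 lower (21.4%, with 18.2% of all genes). The lower ones included the histone demethylase KDM5B (-0.52, limma adjusted p = 0.00137), MBD4 (-0.54, limma adjusted p = 0.00324), the methyl-CG reader ZBTB33 (-0.30, limma adjusted p = 0.0244) and DMAP1, a DNMT1-associated protein (-0.35, limma adjusted p = 0.0316). ZBTB4 was higher by 0.61. At 1 µM 4 were higher and 9 lower (31.0%, with 19.1% of all genes). UHRF1 (-0.60, limma adjusted p = 0.000415), DMAP1 (-0.43, limma adjusted p = 0.00774), KDM5B (-0.41, limma adjusted p = 0.0109) and the deacetylase SIRT1 (-0.46, limma adjusted p = 0.0121) were lower. ZBTB4 was higher by 0.47, a call lost with median scaling (0.30, adjusted p = 0.0945). At 0.1 µM the DMAP1 call was lost without any 1 parental or the first or the third resistant array (adjusted p up to 0.176), and that of ZBTB33 without the second or the third parental or the first resistant array (up to 0.0812). At 1 µM KDM5B was lost without the third array of either line (up to 0.101), and SIRT1 without the third parental or the first resistant array (up to 0.0642). Under 1 µM lapatinib UHRF1, the partner that brings DNMT1 to replicating DNA, fell in both lines (-1.57 in parental and -2.08 in resistant cells, limma adjusted p = 7.42e-11 and 1.01e-12). DNMT1 fell as well (-0.75 and -0.73, limma adjusted p = 8.95e-07 and 2.33e-06), and so did the chromatin remodeller HELLS (-1.02 and -0.95), the heterochromatin protein CBX5 (-1.05 and -0.88) and the histone methyltransferase SUV39H1 (-0.81 in parental cells). SUV39H1 was lower in resistant cells too, at -0.42 to -0.36 with 1 array left out (limma adjusted p up to 0.0234). KDM5B rose (0.84 and 0.54), and the repressor E2F6 fell in resistant cells (-0.49, limma adjusted p = 0.00217). Averaging the E2F6 probes gave -0.19 there and ended the call (adjusted p = 0.192). In all 2 genes rose and 9 fell in parental cells (26.2%, with 26% of all genes), and 2 rose and 10 fell in resistant cells (28.6%, with 20.9% of all genes). With all arrays in the fit the PAGE signal did not pass the test in the same comparisons, with the wide intervals given above. A link between these genes and the PAGE signal was not tested.

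Partners of MAGE proteins differed little between the lines. Of the 6 ligase partners tested, 0 passed under basal conditions and 0 at 0.1 µM with limma, with 2 and 0 at an unadjusted p under 0.05, and at 1 µM USP7, a deubiquitinase, was higher by 0.44 (SE 0.11, adjusted p = 0.00877), a call lost without the second parental or the first resistant array at 1 µM (adjusted p up to 0.0974) and with median scaling (0.30, adjusted p = 0.136). TRIM28, the ligase bound by MAGEA3 and MAGEA6, differed by 0.15 (adjusted p = 0.509) under basal conditions, PRKAA1 by 0.31 (adjusted p = 0.0638) and NSMCE1 by -0.02 (adjusted p = 0.954). PRKAA1, the AMPK subunit known as a target of that complex, rose under 1 µM lapatinib by 0.65 in parental (limma adjusted p = 5.08e-05) and 0.54 in resistant cells (limma adjusted p = 0.000583). With median scaling these rises were 0.33 (adjusted p = 0.0815) and 0.39 (adjusted p = 0.0548). PJA1, the ligase bound by MAGED1, fell in parental cells (-0.60, limma adjusted p = 0.00189). Of 7 other MAGE genes of broad expression, 0 passed under basal conditions with limma, 1 had an unadjusted p under 0.05 there, MAGEE1 was higher at 0.1 µM (0.35, limma adjusted p = 0.0335), and 0 passed at 1 µM, with 0 at an unadjusted p under 0.05. The MAGEE1 call was lost without the second parental or the first or the third resistant array at 0.1 µM (adjusted p up to 0.17) and with median scaling (0.32, adjusted p = 0.0563). MAGED1, MAGEF1 and NDN, those of high signal, differed by 0.06, 0.45 (adjusted p = 0.0526) and -0.04 under basal conditions.

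The genes whose signal followed the PAGE mean most closely over the 18 arrays were NLGN4X (r = 0.992), KCNK1 (r = 0.989), FSTL5 (r = 0.988), CTPS2 (r = 0.985) and HBG2 (r = 0.985). These arrays fall into the 2 lines, and the 5 genes were higher in the resistant line by 2.62, 1.76, 2.21, 1.26 and 2.32 (log2), so the correlations mostly restate the line difference. With the mean of each line subtracted, the closest were NDST1 (r = 0.80), HS6ST1 (r = 0.79), HIF1AN (r = 0.77), MS4A7 (r = 0.76) and TNKS1BP1 (r = 0.76). The PAGE mean then varied most on the pair of departing arrays, so these correlations may mostly reflect those arrays. The 2 sets had no gene in common. All of these values come from the same arrays, and no test was made of them.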

How the data were processed

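The deposited table of 48803 probes holds the intensity of each probe on a linear scale on 18 arrays, not normalized, without control probes or detection values. Per the submitters' processing notes BeadStudio made the values, and its version is not stated there. A second deposited table of the authors holds the same intensity after normalization between arrays and served as an alternative. Probes were named from the platform annotation, updated through gene identifiers and a RefSeq table of GRCh38.p14 (28098 probes with 1 symbol, 13 with several, 20692 with none). Of the members, 18 of 18 probes had a symbol.

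Values were corrected with normexp (offset 50), quantile-normalized and put on the log2 scale with R 4.3.3 and limma 3.58.1. A probe entered the fit if 3 or more arrays had it above background (22829, or 12584 genes with 1 probe each, the brightest). Background was the mode of an array's log2 values with the SD of the values under it. A fit with 1 mean for each of 6 groups (lmFit, eBayes with an intensity trend) gave 11 two-sided contrasts, with Benjamini-Hochberg adjustment over all kept probes and a threshold of 0.05. Intervals are at 95%. The number of arrays limits the precision. The fit was tested on simulated data. Promoter sequences came from RefSeq (GRCh38.p14), compared with Biopython 1.88. The members and lists were chosen with earlier results of these data known. From each list up to 6 genes past the threshold with the smallest adjusted p and up to 3 others with the highest signal were to be named in each comparison. Values are given for those past the threshold in most comparisons, and for the others mainly in the basal line comparison. SPA17 and XAGE2 under lapatinib, and the genes beside PAGE1 and PAGE4, fall outside this rule and were named after their values were seen. Deviations from the group means correlated at -0.171 to 0.123 between same-numbered arrays of different groups, so the numbers were not used to pair them. Alternatives are listed in the closing section.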

Additional observations from a re-analysis of the deposited data

How the results depend on the processing

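Under 32 other settings, 18 of which leave out 1 array each, 120 results were followed. These were the PAGE medians, the counts of calls, the 5 calls of MAGED2 and MAGEA3 probes, and the calls of list genes between the lines and at 1 µM. Over all settings 3554 values counted as unchanged, 43 counts or medians moved, 234 calls were lost and 0 values reversed. A count cannot reverse, and the other results were calls or large differences, so the 0 was nearly fixed in advance. The PAGE responses to lapatinib, which did not pass, did turn sign without single arrays, as given with them. The PAGE2, PAGE2B and PAGE5 median under basal conditions was 5.83 with a normexp offset of 16 and 5.26 with median scaling, and it lay between 5.36 and 5.53 with 1 array left out (5.07 to 5.58 at 0.1 µM, 5.11 to 5.69 at 1 µM). Median scaling moved the median of all probes by -0.19 between the lines under basal conditions, by -0.17 and -0.13 under 0.1 µM and 1 µM in parental cells, and by 0.10 for the difference of responses at 0.1 µM.

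Counts of member probes called were small and moved. In parental cells at 0.1 µM the count was 0 with no filter and with the mean of probes, and 0 to 1 with 1 array left out. It stayed at 1 with median scaling, but MAGED2 was lost (adjusted p = 0.246) and MAGEA6 gained. At 1 µM it was 1 with no filter, with the brightest probe per gene and without both departing arrays (a setting chosen after seeing the data), 0 with the mean of probes, and 1 to 2 with 1 array left out, PAGE2 being gained without the third parental array at 1 µM. Between the doses it was 0 to 1, the 1 being PAGE2 without the third parental array at 1 µM or the third resistant array at 0.1 µM. In resistant cells at 0.1 µM it was 0 with median scaling, the mean of probes, the groups compared alone, array weights, or without both departing arrays, and 0 to 1 with 1 array left out. At 1 µM it was 0 with the mean of probes, 3 with the groups compared alone (PAGE2 and PAGE2B added), 2 without both departing arrays (PAGE2 added), and 1 with any 1 array left out. The MAGED2 calls at 1 µM held whichever array was left out (adjusted p up to 0.00554 in parental and 0.0124 in resistant cells). Those at 0.1 µM were lost without 1 of 5 arrays in parental and 1 of 3 in resistant cells (adjusted p up to 0.166 and 0.192), and the MAGEA3 call without 1 of 5 (up to 0.139).

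Neighbours called at 0.1 µM numbered 2 with no filter, the groups compared alone, or array weights. With 1 array left out they numbered 2 to 5 at basal, 2 to 4 at 0.1 µM and 2 to 3 at 1 µM. Other cancer-testis genes called at 1 µM numbered 9 with no filter. With 1 array left out they numbered 10 to 18 at basal, 12 to 18 at 0.1 µM and 8 to 16 at 1 µM. The replicate numbers, which were not shown to pair the arrays, were also tried as a block. With it 15, 15 and 13 other cancer-testis genes and 4, 3 and 2 neighbours were called at basal, 0.1 µM and 1 µM. The PAGE median stayed at 5.46 under basal conditions. KLF8 at 0.1 µM did not pass with the block (adjusted p = 0.0541). A chip or array position as a block was not run, since the tables name neither. Signal near background limits PAGE1, MAGEH1, the dim MAGED2 probes, the parental PAGE signal, and the neighbours CCNB3, ALAS2 and FAAH2.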
